A study of Mus musculus with 24 samples.

Results

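Interferon response genes are genes whose transcription rises when a cell senses an interferon or viral nucleic acid. A list of 45 of them was followed in mouse neural stem and progenitor cells (NSPCs), embryonic brain cells that can be kept dividing and can give rise to neurons and glia. The members were taken by gene symbol from count tables of 26411 genes, and all 45 symbols were found. They comprised 4 members of the IFIT family, 5 of the OAS family, 6 GBP and IRG GTPases, 5 RNA and DNA sensors, 4 transcription factors, 8 genes of ISG15, ubiquitin and ADP-ribose conjugation, 4 genes of the MX and viperin loci and 9 other effectors.

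The study examined NSPCs with both, 1 or no functional alleles of *Kat6a*, which encodes a histone acetyltransferase (*Kat6a*+/+, *Kat6a*+/- and *Kat6a*-/-). The cells came from the dorsal telencephalon of C57BL/6 embryos at embryonic day 12.5, and each library came from 1 embryo. The mutant allele carried a deletion of exons that leads to an early stop codon within the catalytic domain, and it was present in every cell of the embryo. Proliferating NSPCs were grown as neurospheres with FGF2 at 10 ng/ml, EGF at 20 ng/ml and heparin, and RNA was collected after 3 days. Differentiating NSPCs spent 3 days on poly-L-ornithine and laminin in 1% serum without growth factors. There were 6 groups of 4 libraries, 24 in all, with genotypes compared within each condition. Of the embryo labels, 6 occurred in both conditions, and a further pair, in *Kat6a*+/+ replicate 2 of each condition, differed only by swapped digits and was taken as written. RNA was extracted with a different kit in each condition, so kit and condition cannot be told apart.

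An interferon binds its receptor at the cell surface, and the Janus kinases bound to that receptor phosphorylate STAT proteins. STAT proteins joined by IRF9 form the complex ISGF3, which binds the interferon-stimulated response element (ISRE), whereas STAT dimers bind the gamma-activated site (GAS). The target genes encode proteins that bind viral RNA, block translation, hold virus particles at the membrane or attack vacuoles that contain pathogens, and many also act in the sensing of viral RNA that starts the response.

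The summed counts per library lay between 7826660 and 40838203. Proliferating *Kat6a*+/+ replicate 1 was the deepest library, and the 12 differentiating libraries held between 14836869 and 23692125 counts. Levels are given as CPM, counts relative to the size of the library, scaled across the 24 libraries by trimmed mean of M-values (TMM), and levels of different genes are compared only as RPKM, which is CPM per kilobase of gene. NSPC markers (*Sox2*, *Nes*, *Pax6*, *Vim* and *Fabp7*) summed to between 5086 and 7940 CPM in proliferating and between 5842 and 11722 CPM in differentiating libraries. Litters numbered 5 in proliferating and 7 in differentiating NSPCs, and 3 of 4 *Kat6a*+/+ libraries were male against 1 of 4 in each mutant group. Whole-gene counts of *Kat6a* do not check the genotype labels, because reads outside the deleted exons are counted too. In bulk RNA, fewer cells of a type and less RNA per cell cannot be told apart.

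The sequences upstream of the members held ISRE motifs more often than those of other genes. In the 250 bases upstream of the annotated start (GRCm39, both strands, overlapping matches counted), the ISRE core GAAANNGAAA occurred in 15 of 45 members, or 33.3%, and in 722 of 21735 protein-coding genes, or 3.32%. The GAS core TTCNNNGAA occurred in 8 of 45 members, or 17.8%, and in 1673 genes, or 7.7%. The members with an ISRE core were *Ifit1*, *Ifit3*, *Ifit3b*, *Ifi27*, *Isg15*, *Oas2*, *Oas3*, *Stat2*, *Rsad2*, *Usp18*, *Bst2*, *Irgm1*, *Iigp1*, *Rtp4* and *Zbp1*. The stretches below belong to 6 members named repeatedly in the results. They lie upstream of the start, outside annotated exons of the gene, and are written 5′ to 3′ on the strand of the gene, with capitals marking the ISRE core in the first 5 and the GAS core in the last.
Ifit1 (chr19:34618171-34618270, plus strand, 100 to 1 bases upstream): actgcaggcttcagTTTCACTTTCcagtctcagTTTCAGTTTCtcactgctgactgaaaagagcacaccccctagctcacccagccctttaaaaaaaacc
Ifit3 (chr19:34560753-34560852, plus strand, 146 to 47 bases upstream): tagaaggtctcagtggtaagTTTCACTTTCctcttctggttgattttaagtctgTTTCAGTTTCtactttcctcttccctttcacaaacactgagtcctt
Ifit3b (chr19:34585149-34585248, plus strand, 179 to 80 bases upstream): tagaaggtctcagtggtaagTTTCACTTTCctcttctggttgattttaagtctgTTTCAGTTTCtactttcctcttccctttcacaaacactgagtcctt
Isg15 (chr4:156285304-156285403, minus strand, 100 to 1 bases upstream): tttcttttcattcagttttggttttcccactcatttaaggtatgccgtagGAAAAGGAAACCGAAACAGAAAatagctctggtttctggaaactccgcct
Bst2 (chr8:71990167-71990266, minus strand, 152 to 53 bases upstream): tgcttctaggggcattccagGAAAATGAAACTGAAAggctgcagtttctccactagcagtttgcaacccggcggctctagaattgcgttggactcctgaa
Irf1 (chr11:53660741-53660811, plus strand, 100 to 30 bases upstream): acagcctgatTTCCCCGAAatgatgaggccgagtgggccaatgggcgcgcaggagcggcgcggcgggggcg
The stretches of *Ifit3* and *Ifit3b* were identical over 100 of 100 bases, and their canonical transcripts were identical at 1991 of 2089 aligned positions (95.3%). The counting could therefore have split reads between these copies, so their values are uncertain as separate genes. *Isg15* carried 3 overlapping ISRE cores in 1 block, and *Ifit1* carried 2 that lay apart. A match describes the letters only. Several members are neighbours. *Ifit2* and *Ifit3* lie 6.37 kb apart and *Ifit3* and *Ifit3b* 18.9 kb apart on chromosome 19, and *Rsad2* and *Cmpk2* lie 12.8 kb apart on opposite strands of chromosome 12. *Parp9* and *Dtx3l* overlap by 682 bases on opposite strands. The strand setting of the counting was not given in the sources used here, so reads of that overlap are uncertain.

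In *Kat6a*+/+ NSPCs most members were expressed at a low level. In proliferating cells the highest mean levels were those of *Bst2*, which encodes tetherin, a protein that holds budding virus at the cell surface, at 9.65 RPKM, *Stat2* at 8.46 RPKM and *Eif2ak2*, which encodes the translation-blocking kinase PKR, at 8.04 RPKM. *Iigp1*, *Oas1a*, *Oas2*, *Oas3* and *Mx1* had 0 counts in all 4 proliferating *Kat6a*+/+ libraries. In differentiating cells *Ifi27*, which encodes a small interferon-induced membrane protein, led at 32.9 RPKM, followed by *Eif2ak2* at 10.8 RPKM and *Parp12*, an ADP-ribosyltransferase gene, at 9.9 RPKM.

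Between proliferating and differentiating *Kat6a*+/+ NSPCs, 27 of the 37 members tested passed a false discovery rate (FDR) of 0.05 (limma-voom, Benjamini-Hochberg adjustment over 13590 genes). Of all genes tested, 72.9% were called in this comparison, so the count of members was at the background. The direction was uneven. Higher in differentiating cells were 19 members, against 36.7% of all genes, and 8 were lower, against 36.2%. The median log2 fold change was 0.81 over the members and 0.02 over all genes.

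Among the members higher in differentiating cells was *Ifit3*, whose protein binds foreign RNA together with other IFIT proteins. Its level was 0.101, 0.120, 0 and 0 CPM in the proliferating and 3.96, 3.55, 2.51 and 1.34 CPM in the differentiating *Kat6a*+/+ libraries. The groups did not overlap, and the log2 fold change was 4.83 ± 0.93 (SE, FDR 8.15e-05). *Ifi27* rose from 1.92–5.93 CPM to 38.2–50.4 CPM (4.03 ± 0.36, FDR 2.73e-09). *Samd9l*, an antiviral gene whose product represses translation, rose by 3.13 ± 0.61 (log2, FDR 0.000103). The members lower in differentiating cells were *Trim25*, *Bst2*, *Isg20*, *Dhx58*, *Gbp7*, *Gbp3*, *Stat2* and *Irf1*. *Bst2* showed the clearest separation of these, with 5.65–9.15 CPM in proliferating and 1.09–1.91 CPM in differentiating cells (log2 fold change −2.38 ± 0.34, FDR 2.52e-06). *Irf1* was the weakest call (−0.32 ± 0.13, FDR 0.0296), its groups overlapped, and it passed in 11 of 24 fits that left out 1 library.

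**Figure D1:**
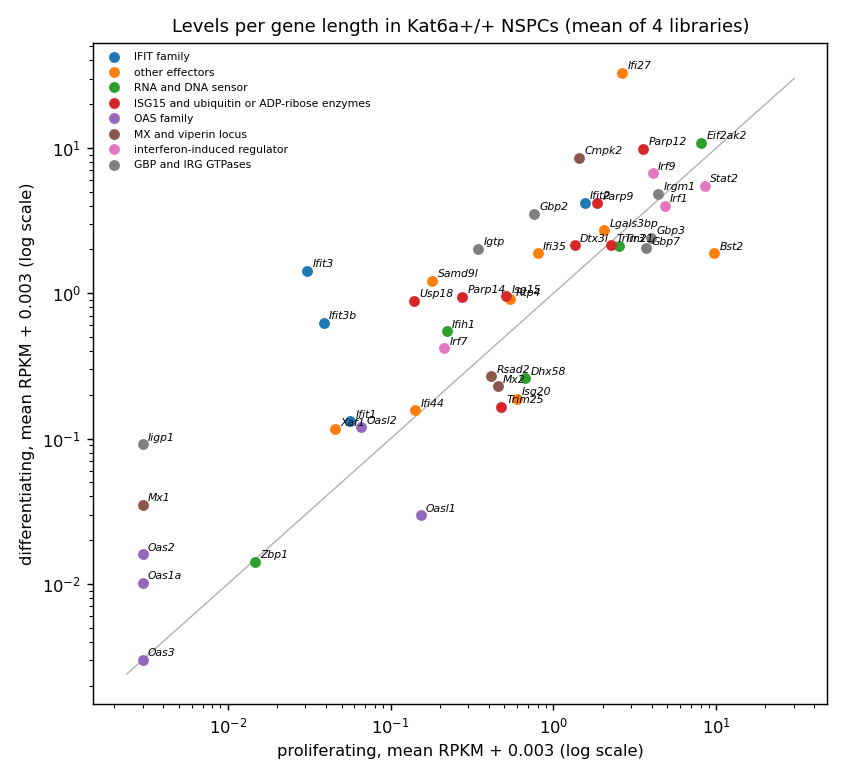
Mean level per gene length (RPKM, log scales, a small constant added so that 0 can be drawn) of the 45 members in proliferating (x) and differentiating (y) *Kat6a*+/+ NSPCs, coloured by role, with a line of equality. *Ifi27* lies highest on the y axis at 32.9 RPKM, *Bst2* lies furthest right at 9.65 RPKM, and *Oas3* is at 0 on both axes.

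In proliferating NSPCs the loss of both *Kat6a* alleles changed 7 of the 28 members tested (limma-voom with litter as a random block, FDR under 0.05 over 12276 genes). That is 25% of the members tested, against 30% of all genes (16.2% higher and 13.8% lower). *Tlr3*, *Samd9l*, *Ifi27*, *Irgm1*, *Eif2ak2* and *Irf9* were higher and *Bst2* was lower in *Kat6a*-/- cells. The median log2 fold change was 0.16 over the members and −0.00 over all genes, and 16 of 28 estimates were positive. In 4 members every *Kat6a*-/- library lay above every *Kat6a*+/+ library, as in 13.7% of all genes.

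*Tlr3*, which encodes the endosomal receptor for double-stranded RNA, was at 6.73, 7.52, 16.8 and 14.2 CPM in the proliferating *Kat6a*+/+ libraries, at 11, 20.4, 11.7 and 30.3 CPM in those of *Kat6a*+/- and at 30.9, 26.4, 19.9 and 49.1 CPM in those of *Kat6a*-/- NSPCs. All 4 *Kat6a*-/- libraries lay above all 4 *Kat6a*+/+ libraries (log2 fold change 1.58 ± 0.35, FDR 0.00601). *Irgm1*, an immunity-related GTPase gene that acts in the control of intracellular pathogens, was at 8.85, 7.27, 13.1 and 11.4 CPM in the *Kat6a*+/+ libraries against 20.8, 13.5, 17.0 and 24.8 CPM in *Kat6a*-/- libraries. Its groups did not overlap either (0.98 ± 0.19, FDR 0.0028). *Eif2ak2* was at 40.6, 31.4, 37.1 and 29.9 CPM in the *Kat6a*+/+ libraries against 50.4, 43.6, 46.2 and 59.4 CPM in *Kat6a*-/- libraries (0.54 ± 0.11, FDR 0.00413), again without overlap.

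*Bst2* moved the other way. It was at 8.52, 5.65, 9.15 and 7.86 CPM in the *Kat6a*+/+ libraries, at 10.2, 10.9, 14.8 and 6.05 CPM in those of *Kat6a*+/- and at 2.04, 4.12, 2.08 and 2.89 CPM in those of *Kat6a*-/- NSPCs. Every *Kat6a*-/- library lay below every library of the other genotypes (log2 fold change vs. *Kat6a*+/+ −1.55 ± 0.35, FDR 0.00528).

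The remaining calls were less separated or rested on fewer reads. *Ifi27* was at 2.10, 1.92, 5.93 and 3.93 CPM in the *Kat6a*+/+ libraries against 10.8, 5.03, 5.58 and 12.8 CPM in *Kat6a*-/- libraries, which overlap (1.41 ± 0.36, FDR 0.0111). *Samd9l* was at 0.379, 0.842, 1.41 and 1.14 CPM in the *Kat6a*+/+ libraries against 2.72, 1.80, 1.42 and 4.69 CPM in *Kat6a*-/- libraries (1.56 ± 0.46, FDR 0.0223). Here the groups only just separated, between 1.41 and 1.42 CPM. *Irf9*, which encodes the DNA-binding subunit of ISGF3, was at 11.4, 11.2, 11 and 10.1 CPM in the *Kat6a*+/+ libraries against 14.7, 14.6, 11.1 and 17.6 CPM in *Kat6a*-/- libraries (0.39 ± 0.12, FDR 0.0238). With litter as a fixed term, *Ifi27* (FDR 0.188), *Samd9l* (FDR 0.24) and *Irf9* (FDR 0.0974) were not called, and 4 members remained. Without *Kat6a*+/+ replicate 1, the deepest library, 4 members were called. The share of all genes called in these fits is not set beside these counts.

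Besides *Bst2*, 4 members had every *Kat6a*-/- library below every *Kat6a*+/+ library without passing the test, and such separation was seen in 17.6% of all genes. These were *Ifih1*, which encodes the RNA sensor MDA5 (log2 fold change −1.04, FDR 0.0581), *Parp14* (−0.93, FDR 0.0713), *Stat2* (−0.37, FDR 0.0534) and *Irf1* (−0.25, FDR 0.163). *Stat2*, which encodes the transactivating subunit of ISGF3, was at 40.4, 40.2, 31.3 and 39.6 CPM in the *Kat6a*+/+ libraries against 23.8, 29.4, 28.9 and 28.0 CPM in *Kat6a*-/- libraries. Most IFIT, OAS and MX genes had few reads in proliferating cells. *Ifit3* was at most at 0.598 CPM in any proliferating library, and of the IFIT and OAS genes *Ifit2* alone passed the filter on low counts. *Mx2*, at 0.782–1.55 CPM in the proliferating *Kat6a*+/+ and *Kat6a*-/- libraries, was left out as a pseudogene, and in a fit of all biotypes it was not called (0.08, FDR 0.855). Microglia and macrophage markers summed to 4.83–5.36 CPM in proliferating *Kat6a*+/+ and 9.09–14.6 CPM in *Kat6a*-/- libraries. Of the 10 markers 2 were tested and 1 called. The rise lay in *P2ry12*, at a mean of 1.30 CPM in *Kat6a*+/+ and 7.20 CPM in *Kat6a*-/- libraries, whereas *C1qa*, *C1qb*, *Cx3cr1* and *Itgam* were at 0 in both. Of the astrocyte markers 2 of 3 tested were higher, *Gfap* (3.51, FDR 0.00379) and *S100b* (2.23, FDR 2.85e-05), and of the neuron markers *Tubb3* (−1.19, FDR 0.00694) and *Rbfox3* (−1.78, FDR 0.0156) were lower and *Map2* was higher (0.25, FDR 0.0374). *Olig1* was higher as well (0.26, FDR 0.0218). Of the 5 NSPC markers *Fabp7* was higher (0.44, FDR 0.0236) and *Nes* (−0.36, FDR 0.0322) and *Vim* (−0.47, FDR 0.00108) were lower. The part of these markers in the values above was not tested.

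**Figure D2:**
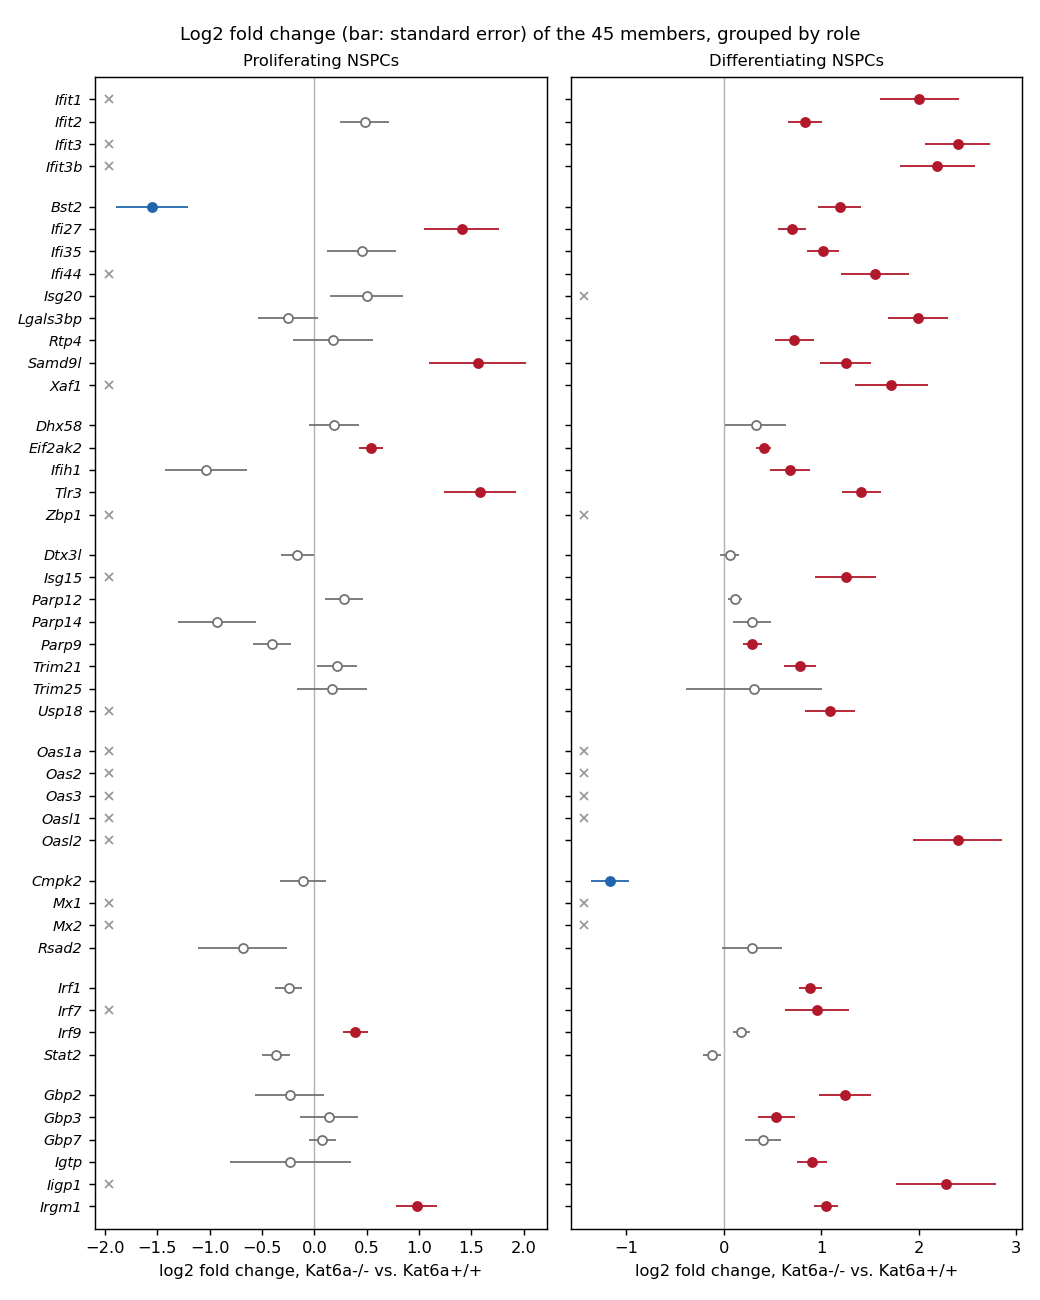
Log2 fold change of each of the 45 members in *Kat6a*-/- vs. *Kat6a*+/+ NSPCs (x; bar, standard error), by role, in proliferating (left) and differentiating (right) cells. Filled red is called higher, filled blue called lower, open is not called at FDR 0.05 and a cross marks members that were not tested. There are 6 red and 1 blue points on the left and 27 red and 1 blue on the right.

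In differentiating NSPCs the loss of both alleles changed 28 of the 37 members tested (limma-trend with library quality weights, FDR under 0.05 over 13339 genes). Higher in *Kat6a*-/- cells were 27 members, or 73% of those tested, against 26.7% of all genes. *Cmpk2* was the 1 member that was lower, against 27.7% of all genes, and the share of all genes called in either direction was 54.4%. The median log2 fold change was 0.89 over the members and −0.02 over all genes, and 35 of 37 estimates were positive (94.6%, against 48.4% of all genes). The low-count filter took libraries of all genotypes together. Members with few reads, such as *Xaf1* and *Ifit1*, could therefore pass it through mutant libraries in which they were high. Such members were unlikely to be tested and lower, and the shares and the median include them. In 15 members every *Kat6a*-/- library lay above every *Kat6a*+/+ library, which held for 12.2% of all genes.

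All 4 IFIT genes were higher, with a median log2 fold change of 2.10. *Ifit3* was at 3.96, 3.55, 2.51 and 1.34 CPM in the *Kat6a*+/+ libraries, at 6.99, 6.28, 2.39 and 6.86 CPM in those of *Kat6a*+/- and at 16.4, 15.0, 17.0 and 8.78 CPM in those of *Kat6a*-/- NSPCs. All *Kat6a*-/- libraries exceeded all others (log2 fold change vs. *Kat6a*+/+ 2.40 ± 0.33, FDR 0.000102). *Ifit3b*, its near copy, was at 1.93, 1.47, 1.06 and 0.545 CPM in the *Kat6a*+/+ libraries against 6.19, 8.33, 6.45 and 5.04 CPM in *Kat6a*-/- libraries (2.19 ± 0.39, FDR 0.000504). *Ifit1*, whose protein binds RNA that lacks the host cap methylation, was at 0.165, 0.546, 0.434 and 0.210 CPM in the *Kat6a*+/+ libraries against 2.61, 0.584, 1.51 and 0.581 CPM in *Kat6a*-/- libraries. These groups separated by a small margin, and *Kat6a*-/- replicates 1 and 3 were the high ones (2.01 ± 0.40, FDR 0.00119). *Ifit2* was higher by 0.83 ± 0.18 (log2, FDR 0.00182).

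Of the 6 GBP and IRG genes, whose GTPases gather on vacuoles that hold pathogens, 5 were higher. *Irgm1* was at 12.2, 11.3, 10.9 and 10.3 CPM in the *Kat6a*+/+ libraries against 24.8, 21.1, 24.9 and 16.3 CPM in *Kat6a*-/- libraries. This was the call with the smallest FDR among the members (1.05 ± 0.12, FDR 2.59e-05), and its groups did not overlap. *Iigp1* was at 0.110, 0.819, 0.0483 and 0.168 CPM in the *Kat6a*+/+ libraries against 1.65, 0.212, 1.14 and 0.387 CPM in *Kat6a*-/- libraries. Its groups overlapped widely, since *Kat6a*+/+ replicate 2 exceeded 2 of the *Kat6a*-/- libraries (2.29 ± 0.51, FDR 0.0025). *Igtp* (0.90 ± 0.15, FDR 0.00034), *Gbp2* (1.25 ± 0.27, FDR 0.00191) and *Gbp3* (0.54, FDR 0.031) were also higher. *Gbp7* was not called (0.40, FDR 0.0769).

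All 8 of the other effectors that were tested were higher. *Lgals3bp*, which encodes a secreted glycoprotein that binds galectins, was at 4.73, 10.0, 4.97 and 4.07 CPM in the *Kat6a*+/+ libraries against 35.6, 6.21, 21.8 and 8.65 CPM in *Kat6a*-/- libraries (1.99 ± 0.31, FDR 0.000195). *Xaf1*, a pro-apoptotic gene, was at 0.330, 0.328, 0.0965 and 0.419 CPM in the *Kat6a*+/+ libraries against 1.10, 0.637, 1.21 and 0.387 CPM in *Kat6a*-/- libraries (1.72 ± 0.38, FDR 0.00214). *Ifi44* was at 0.330, 0.710, 0.386 and 0.335 CPM in the *Kat6a*+/+ libraries against 2.06, 0.584, 1.45 and 0.452 CPM in *Kat6a*-/- libraries (1.55 ± 0.35, FDR 0.00259). In all 3 genes *Kat6a*-/- replicates 1 and 3 were the highest libraries, and the groups overlapped.

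*Bst2*, lower in proliferating *Kat6a*-/- cells, was higher in the differentiating ones. It was at 1.6, 1.91, 1.50 and 1.09 CPM in the *Kat6a*+/+ libraries, at 3.44, 6.35, 2.06 and 3.76 CPM in those of *Kat6a*+/- and at 3.85, 2.34, 3.74 and 2.84 CPM in those of *Kat6a*-/- NSPCs. All mutant libraries of either genotype lay above all 4 *Kat6a*+/+ libraries (*Kat6a*-/- vs. *Kat6a*+/+ 1.19 ± 0.22, FDR 0.000727). *Samd9l* was at 6.38, 8.52, 6.23 and 4.69 CPM in the *Kat6a*+/+ libraries against 15.4, 17.7, 16.4 and 7.10 CPM in *Kat6a*-/- libraries (1.25 ± 0.26, FDR 0.00166). *Ifi27* was at 40.6, 50.4, 38.2 and 44.8 CPM in the *Kat6a*+/+ libraries against 80.8, 52.0, 67.1 and 50.6 CPM in *Kat6a*-/- libraries (0.70 ± 0.14, FDR 0.00145). For *Samd9l* 3 of 4 *Kat6a*-/- libraries stood above the *Kat6a*+/+ range, and for *Ifi27* all 4 did, 1 of them by a small margin. *Ifi35* (1.02 ± 0.16, FDR 0.000259) and *Rtp4* (0.72 ± 0.20, FDR 0.00809) were the other effectors called.

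Of the sensors of viral RNA, 3 of 4 tested were higher. *Tlr3* was at 8.26, 12.6, 8.35 and 8.68 CPM in the *Kat6a*+/+ libraries against 28.7, 38.0, 23.4 and 13.0 CPM in *Kat6a*-/- libraries, with no overlap (1.41 ± 0.20, FDR 0.00012). *Eif2ak2* was at 46.5, 46.3, 43.7 and 51.0 CPM in the *Kat6a*+/+ libraries against 56.1, 71.0, 63.0 and 53.9 CPM in *Kat6a*-/- libraries, also with no overlap (0.41 ± 0.08, FDR 0.000754). *Ifih1* was at 3.19, 3.39, 3.19 and 2.22 CPM in the *Kat6a*+/+ libraries against 7.36, 4.41, 4.64 and 4.13 CPM in *Kat6a*-/- libraries (0.68 ± 0.21, FDR 0.0143). *Dhx58*, which encodes the sensor LGP2, was not called (0.33, FDR 0.392).

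*Oasl2*, the member of the oligoadenylate synthetase family that was tested, was at 0.275, 0.710, 0.0965 and 0.377 CPM in the *Kat6a*+/+ libraries against 2.20, 0.584, 1.93 and 0.775 CPM in *Kat6a*-/- libraries (2.40 ± 0.45, FDR 0.000788). *Kat6a*-/- replicates 1 and 3 again stood highest. *Isg15*, which encodes the ubiquitin-like modifier of the response and was picked for display after its values were seen, was at 0.661, 0.928, 0.531 and 0.754 CPM in the *Kat6a*+/+ libraries against 3.10, 0.372, 1.75 and 0.840 CPM in *Kat6a*-/- libraries (1.25 ± 0.31, FDR 0.00481). Its *Kat6a*-/- libraries included both the highest and the lowest of the 8. Of the other ISG15, ubiquitin and ADP-ribose genes, *Usp18*, which encodes the protease that removes ISG15 (1.09 ± 0.26, FDR 0.00343), *Trim21* (0.78, FDR 0.00149) and *Parp9* (0.29, FDR 0.0213) were higher. *Dtx3l*, *Parp12*, *Parp14* and *Trim25* were not called. *Cmpk2*, a mitochondrial nucleotide kinase gene and the single lower member, was named after its values were seen. It was at 26.4, 19.9, 26.4 and 36.6 CPM in the *Kat6a*+/+ libraries against 9.36, 33.7, 11 and 20.2 CPM in *Kat6a*-/- libraries, which overlap (−1.17 ± 0.19, FDR 0.000355). Its neighbour *Rsad2*, which encodes viperin, was not called (0.29, FDR 0.446).

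Of the 4 transcription factors of the list, *Irf1* and *Irf7* were higher. *Irf1* was at 13.0, 15.5, 11.5 and 13.4 CPM in the *Kat6a*+/+ libraries, at 19.3, 15.2, 13.7 and 13.8 CPM in those of *Kat6a*+/- and at 21.1, 21.3, 25.1 and 19.6 CPM in those of *Kat6a*-/- NSPCs. All *Kat6a*-/- libraries lay above all others (vs. *Kat6a*+/+ 0.89 ± 0.12, FDR 7.99e-05). *Irf7*, which amplifies the type I interferon response, was at 0.550, 1.15, 0.676 and 0.713 CPM in the *Kat6a*+/+ libraries against 1.79, 0.902, 1.45 and 0.775 CPM in *Kat6a*-/- libraries, with overlap (0.96 ± 0.33, FDR 0.026). The other subunits of ISGF3 held by the list did not pass. *Irf9* was at 18.7, 18.7, 15.8 and 18.6 CPM in the *Kat6a*+/+ libraries against 19.4, 22.7, 19.5 and 23.8 CPM in *Kat6a*-/- libraries, all above without passing the test (0.18, FDR 0.0952). *Stat2* was at 24.3, 28.1, 22.4 and 23.1 CPM in the *Kat6a*+/+ libraries against 19.5, 28.3, 21.6 and 26.1 CPM in *Kat6a*-/- libraries (−0.12, FDR 0.288).

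**Figure D3:**
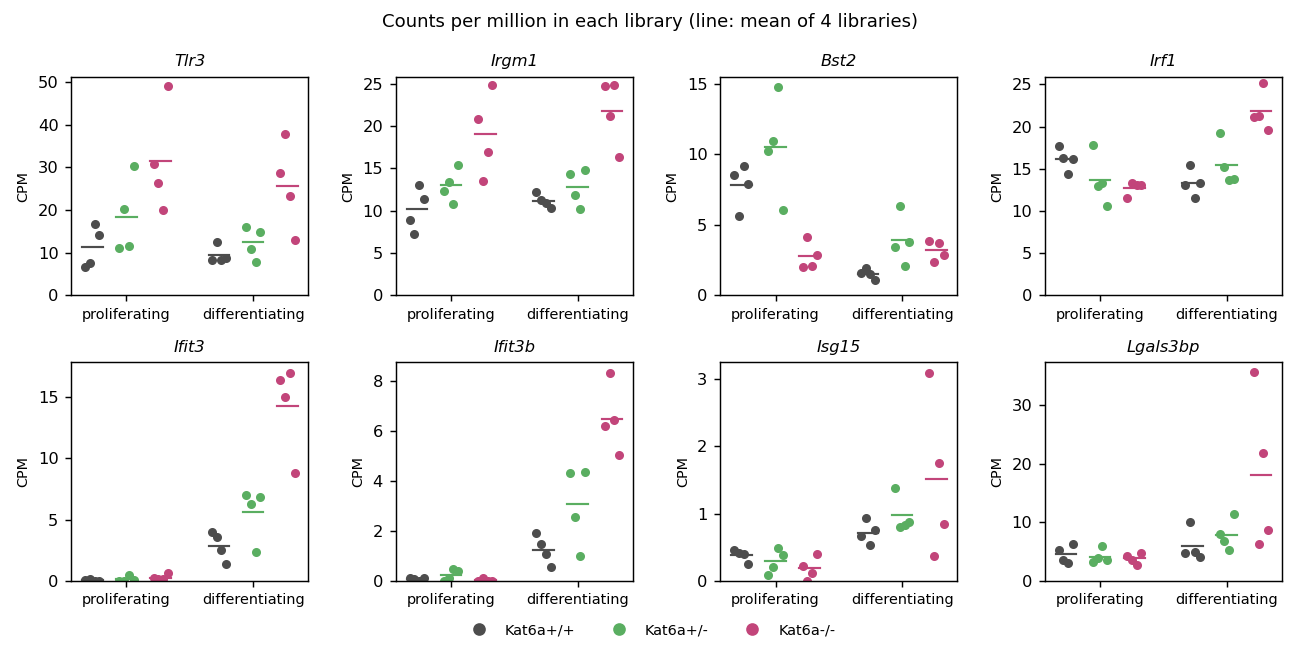
CPM of *Tlr3*, *Irgm1*, *Bst2*, *Irf1*, *Ifit3*, *Ifit3b*, *Isg15* and *Lgals3bp* in each library (points) by condition and genotype, with the mean of 4 libraries as a line and each y axis starting at 0. *Bst2* in *Kat6a*-/- cells lies below *Kat6a*+/+ in proliferating and above it in differentiating cells, and *Lgals3bp* spreads from 6.21 to 35.6 CPM over the differentiating *Kat6a*-/- libraries.

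The count of 28 depended on how libraries were weighted. The quality weights gave *Kat6a*-/- replicate 3 a share of 69% of the weight within its genotype, against 4.22% for replicate 2. Without weights 11 members were called, all higher, or 29.7% of those tested against 10.8% of all genes higher. These were *Irgm1*, *Igtp*, *Gbp2*, *Ifit2*, *Ifit3*, *Ifit3b*, *Eif2ak2*, *Tlr3*, *Irf1*, *Bst2* and *Samd9l*. The edgeR quasi-likelihood test gave 15, DESeq2 21, litter as a fixed term 8 and sex as a fixed term 10. The share of all genes called also changed between fits, and the figure that follows sets it beside that of the members. *Iigp1*, *Isg15*, *Usp18*, *Cmpk2*, *Irf7*, *Ifi44*, *Rtp4* and *Parp9* were called in none of the edgeR, DESeq2 and unweighted fits. Without *Kat6a*-/- replicate 1, 5 members were called (*Ifit3*, *Eif2ak2*, *Irf1*, *Irgm1* and *Tlr3*), and without replicate 3 only *Irgm1* and *Tlr3* were. Fewer of all genes were called higher as well, at 3.28% and 2.26%. The median of the members stayed positive in both, at 0.65.

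**Figure D4:**
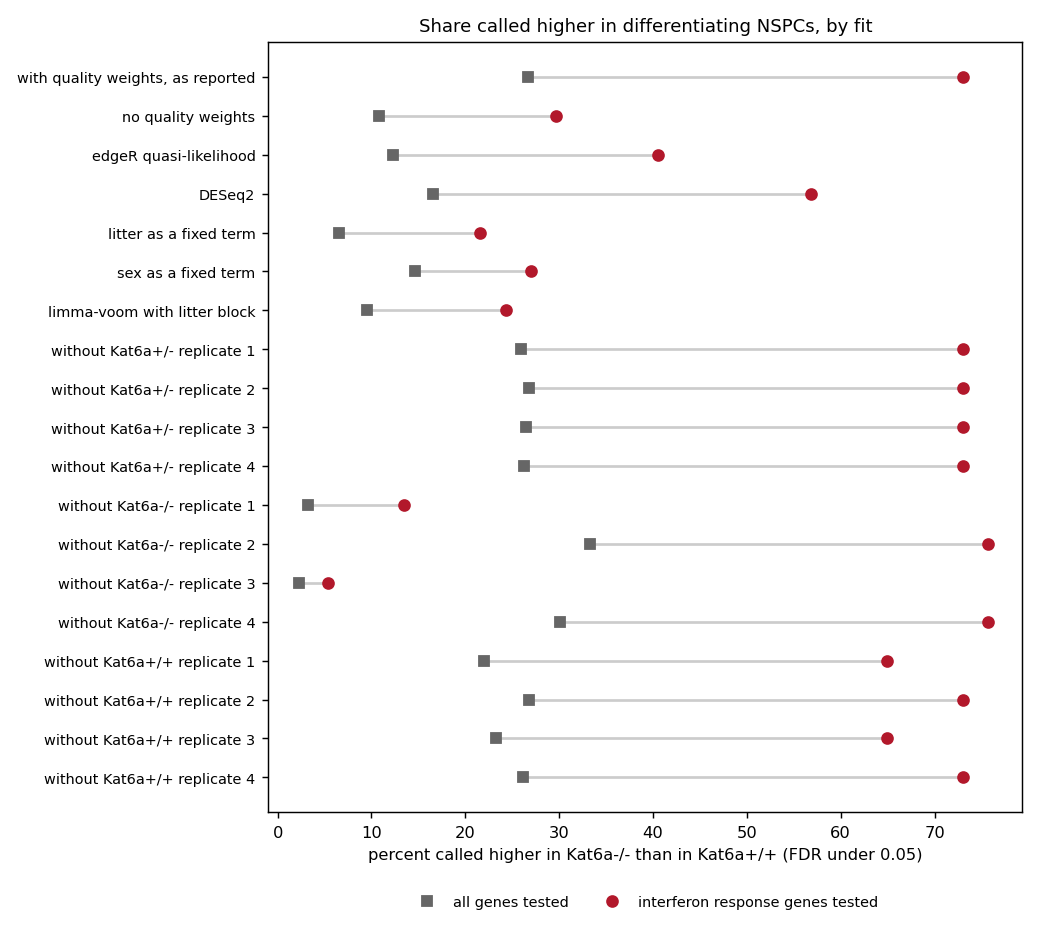
Percentage of interferon response genes tested (red circles) and of all genes tested (grey squares) called higher in differentiating *Kat6a*-/- than in *Kat6a*+/+ NSPCs, for the fit reported (top) and the other settings shown. The members' share lies above that of all genes in every row, at 73% against 26.7% in the fit reported and at 5.41% against 2.26% without *Kat6a*-/- replicate 3.

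Averaged over the 37 members, the log2 difference from the *Kat6a*+/+ mean was 0.00, 0.17, −0.09 and −0.09 in the differentiating *Kat6a*+/+ libraries. It was 0.44, 0.30, −0.04 and 0.40 in *Kat6a*+/- and 0.85, 0.48, 0.79 and 0.31 in *Kat6a*-/- libraries. Every *Kat6a*-/- library was above every *Kat6a*+/+ library on this mean, whereas *Kat6a*+/- replicate 3 lay inside the *Kat6a*+/+ range. The mean includes members with few reads that could pass the filter through mutant libraries. In proliferating cells the same mean over 28 members ran from −0.15 to 0.13 in *Kat6a*+/+ and from −0.10 to 0.39 in *Kat6a*-/- libraries, which overlap.

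**Figure D5:**
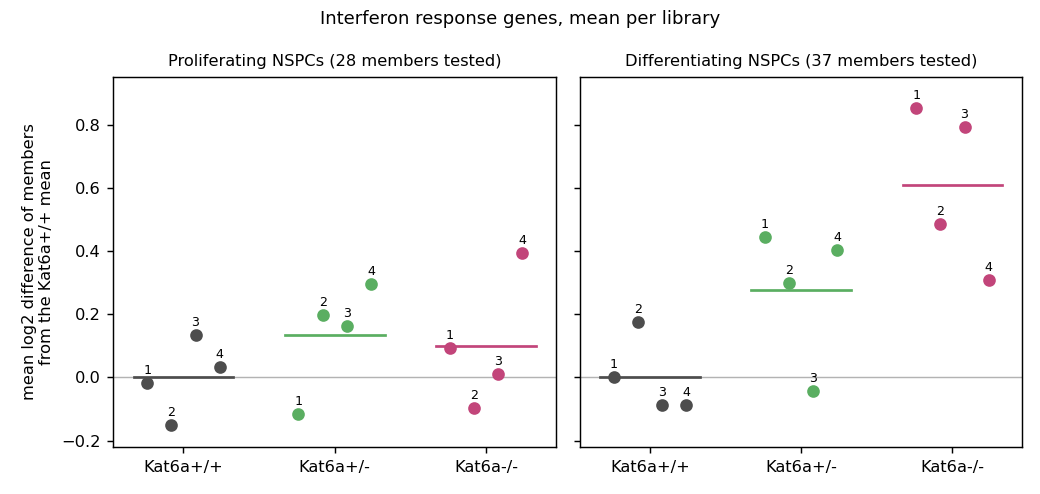
Mean log2 difference of the tested members from the *Kat6a*+/+ mean (y) in each library, by genotype, in proliferating (left, 28 members) and differentiating (right, 37 members) NSPCs. Points are libraries with their replicate numbers and lines are group means. The differentiating *Kat6a*-/- libraries lie between 0.31 and 0.85, and the proliferating genotypes overlap.

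Several cell type markers differed between the differentiating genotypes too. The summed level of mesenchymal and meningeal markers was 32.8–66.3 CPM in differentiating *Kat6a*+/+, 54.0–135 CPM in *Kat6a*+/- libraries, and in *Kat6a*-/- replicates 1 to 4 it was 277, 43.4, 260 and 180 CPM. Replicates 1 and 3 were high for both these markers and the mean of the members, whereas replicate 4 had a high marker sum and the lowest mean of the members in its group. Of the 8 markers 4 were tested, and all 4 were called higher (*Col1a1* 5.19, *Col1a2* 3.02, *Foxc1* 1.37 and *Pdgfrb* 0.97, log2 fold change), whereas *Lum* was at 0 in the *Kat6a*-/- libraries. In *Kat6a*-/- replicate 2 the marker sum lay within the *Kat6a*+/+ range, and there *Ifit3* (15.0 CPM), *Tlr3* (38.0 CPM), *Irgm1* (21.1 CPM) and *Irf1* (21.3 CPM) were above every *Kat6a*+/+ library. *Isg15* (0.372 CPM), *Lgals3bp* (6.21 CPM) and *Iigp1* (0.212 CPM) were not. Microglia and macrophage markers summed to 1.63–2.64 CPM in *Kat6a*+/+ and 1.80–3.86 CPM in *Kat6a*-/- libraries, with *C1qa* and *C1qb* at 0 in both, and 1 of 10 was tested and not called. The 3 oligodendrocyte lineage markers tested were lower. Every *Kat6a*-/- library had a higher sum of the 5 NSPC markers (8148 CPM or more) than any *Kat6a*+/+ library (7475 CPM or less). The *Kat6a*+/- sums, from 7184 to 8740 CPM, overlapped both. Of these 5 markers 2 were called higher and 2 lower with both alleles lost. *Vim* averaged 4699 CPM with both alleles present and 7472 CPM with both lost. Astrocyte markers summed to 469–878 CPM in *Kat6a*+/+ libraries, and in *Kat6a*-/- replicates 1 to 4 to 203, 2794, 318 and 1304 CPM, so that replicate 2 stood far above the others. Of the 4 astrocyte markers *S100b* was higher (2.33) and *Aqp4* (−1.61) and *Aldh1l1* (−1.31) were lower, of the 4 neuron markers *Dcx* (−4.51) and *Tubb3* (−0.74) were lower, and the 1 endothelial marker tested, *Kdr*, was lower (−2.52, log2 fold change). The part of these cell type markers in the members' values was not tested.

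With 1 allele lost, no member was called in either condition. In proliferating *Kat6a*+/- vs. *Kat6a*+/+ NSPCs limma-voom called 0 of 28 members and 0% of all genes, and 3 members had an unadjusted p under 0.05 (7.43% of all genes did). In differentiating *Kat6a*+/- vs. *Kat6a*+/+ NSPCs limma-trend called 0 of 37 members and 0% of all genes. There, 35 of 37 estimates were positive with a median of 0.36 (−0.01 over all genes), and 15 members had an unadjusted p under 0.05, all positive, or 40.5% against 14.4% of all genes. The edgeR and DESeq2 fits called 0 members too. The *Kat6a*+/+ libraries are shared with the comparison of *Kat6a*-/- cells, so the signs of both comparisons are not independent. Members with few reads could pass the filter through mutant libraries here as well.

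*Bst2* had the smallest FDR in differentiating *Kat6a*+/- cells (1.13 ± 0.24, FDR 0.16), followed by *Igtp* (0.66 ± 0.16, FDR 0.163). *Igtp*, picked for display after its values were seen, was at 3.19, 4.75, 3.67 and 4.78 CPM in the *Kat6a*+/+ libraries against 5.85, 5.88, 5.56 and 6.52 CPM in *Kat6a*+/- libraries. These 2 genes and *Ifi35* had every *Kat6a*+/- library above every *Kat6a*+/+ library, which held for 1.42% of all genes. *Kat6a*+/- replicate 3 was the lowest of its group for *Oasl2*, *Ifit3* and *Ifit3b*. Without it 7 members were called higher, against 2.23% of all genes called. These were *Parp14*, *Parp9*, *Ifit3b* (1.59), *Ifih1*, *Oasl2* (1.86), *Tlr3* (0.81) and *Bst2* (1.22, log2 fold change). Leaving out a library because it is low for members favours calls of members, so this count is no separate evidence. Over the 12 fits that left out 1 library, between 0 and 7 members were called.

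Between the mutant genotypes, differentiating *Kat6a*-/- vs. *Kat6a*+/- NSPCs differed in 12 of 37 members, or 32.4%, against 37.5% of all genes. Higher in *Kat6a*-/- cells were *Iigp1*, *Irgm1*, *Gbp2*, *Ifit1*, *Ifit3*, *Trim21*, *Tlr3*, *Irf1*, *Ifi35*, *Ifi27* and *Lgals3bp*, by between 0.52 for *Irf1* and 1.96 for *Iigp1* (log2), and *Cmpk2* was lower (−0.99). No member was called with litter as a fixed term or without *Kat6a*-/- replicate 3. The share of all genes called in these fits is not set beside that, so it shows no loss particular to the members. In proliferating *Kat6a*-/- vs. *Kat6a*+/- NSPCs 3 of 28 members were called, against 14.8% of all genes. *Isg20*, an exonuclease gene (1.26, FDR 0.0498), and *Eif2ak2* (0.40, FDR 0.0297) were higher and *Bst2* was lower (−1.92, FDR 0.00316).

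The difference between conditions in the response to loss of both alleles was tested by an interaction term over all 24 libraries (limma-voom, 13590 genes). It was called for 4 of 37 members, all with a larger value in differentiating cells, or 10.8%, against 13.9% of all genes called and 6.36% called in that direction. The largest interaction was that of *Irf7* (log2 difference of effects 2.72 ± 0.81, FDR 0.0287). *Irf7* was at 0.455, 0.421, 0.302 and 0.381 CPM in the proliferating *Kat6a*+/+ libraries against 0, 0, 0 and 0.499 CPM in proliferating *Kat6a*-/- libraries, so this estimate rests on few reads and its size depends on the prior count. It was not called by edgeR (FDR 0.115) or DESeq2 (FDR 0.093). It also lost the call in several fits without 1 library, among them those without proliferating *Kat6a*-/- replicate 1 (FDR 0.0944) or proliferating *Kat6a*+/+ replicate 1 (0.0709).

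*Bst2* (2.59 ± 0.54, FDR 0.00278) and *Irf1* (1.09 ± 0.20, FDR 0.00115) were called by the interaction in all fits, those without 1 library included. *Irf1* was at 17.7, 16.3, 14.4 and 16.1 CPM in the proliferating *Kat6a*+/+ libraries against 11.5, 13.3, 13.1 and 13.1 CPM in proliferating *Kat6a*-/- libraries, so that its groups separated in opposite directions in the conditions. *Ifih1* (1.78 ± 0.54, FDR 0.0293) was at 1.74, 0.962, 1.21 and 0.888 CPM in the proliferating *Kat6a*+/+ libraries against 0.566, 0.387, 0.767 and 0.698 CPM in proliferating *Kat6a*-/- libraries. It was called by edgeR and DESeq2, but it lost the call without proliferating *Kat6a*+/+ replicate 1 (FDR 0.129), without proliferating *Kat6a*-/- replicate 1 (0.0683), 2 (0.0699) or 4 (0.0558), and without differentiating *Kat6a*+/+ replicate 4 (0.0519). Of the 27 members tested in both conditions 6 were called in both for *Kat6a*-/- vs. *Kat6a*+/+, or 22.2%, against 18.2% of all genes tested in both. Of these 6, 5 had the same direction (18.5%, against 12.7% of all genes), with *Bst2* the exception.

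Most of the members that were not tested had few reads. In proliferating cells 17 members did not pass the low-count filter or were not annotated as protein-coding, and in differentiating cells 8 did not. *Oas3* had 0 counts in all 24 libraries, and *Oas1a* had 1 count in 1 differentiating *Kat6a*+/+ library. *Oas2* had 4 counts in the differentiating *Kat6a*+/+ group and 12 in *Kat6a*-/-, and *Zbp1*, which encodes a sensor of Z-form nucleic acid, had 2 and 10. *Oasl1* and *Isg20* had 5 and 22 counts in differentiating *Kat6a*+/+ and 13 and 32 in *Kat6a*-/- libraries. *Mx1* had 7 and 4 counts in these groups. *Mx1* and *Mx2* are annotated as pseudogenes in the reference strain. In a fit of all biotypes *Mx2* was higher in differentiating *Kat6a*-/- cells (0.93 ± 0.34, FDR 0.0377), with 44 and 47 counts summed over the *Kat6a*+/+ and *Kat6a*-/- libraries.

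The interferons themselves were hardly detected. None of the 12 interferon genes listed was tested, and 8 of them had 0 counts in all libraries. *Ifnb1*, the interferon that many cells make first, had 1 count in differentiating *Kat6a*+/+ and 3 in *Kat6a*-/- libraries, these 3 in 1 library. At this depth a difference in interferon transcripts was not detectable.

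Of 9 genes of the receptors, Janus kinases and STAT proteins tested in differentiating cells, 7 were higher and 1 lower in *Kat6a*-/- relative to *Kat6a*+/+. Of all genes, 26.7% were higher and 27.7% lower. Among those higher were *Il10rb* (1.94), *Ifnar2* (1.06), *Ifngr2* (1.05), *Ifngr1* (0.50), *Ifnar1* (0.27) and *Jak1* (0.23), and *Jak2* was lower (−0.64, log2 fold change). In proliferating cells *Jak2* was lower too (−0.48). There 1 of the 9 tested was higher and 1 lower, against 16.2% and 13.8% of all genes. The interaction was called for *Ifnar2* (0.88 ± 0.22, FDR 0.0091). Of 11 other sensors and adaptors tested in differentiating cells 5 were higher and none lower, where 26.7% of all genes were higher and 54.4% called in either direction. Among them were *Sting1*, the adaptor for cytosolic DNA (3.66), *Myd88* (1.26) and *Rigi*, a sensor of viral RNA (0.87). In proliferating cells 1 of 11 was higher, *Sting1* (0.63, FDR 0.00306), and 1 was lower, *Zc3hav1* (−0.41, FDR 0.00755), against 16.2% and 13.8% of all genes. The interaction was not called for *Sting1* (1.68 ± 1.15, FDR 0.346). It was called for 1 of the 11, *Ticam1* (0.65 ± 0.21, FDR 0.0451).

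Among 10 negative regulators tested in differentiating cells 3 were higher and 5 lower, against 26.7% and 27.7% of all genes. *Socs3* (1.04), *Socs1* (1.01), which encode inhibitors of Janus kinase signalling, and *Samhd1* (0.60) were higher. The lower ones included *Rnaseh2b* (−0.89) and *Rnaseh2c* (−0.89), subunits of an enzyme that removes ribonucleotides from DNA. In proliferating cells 1 of 9 was higher, *Nlrx1* (1.34), and 4 were lower, against 16.2% and 13.8% of all genes.

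Other interferon-stimulated genes, outside the 45 members, were higher in 12 and lower in 1 of 18 tested in differentiating cells, where 26.7% of all genes were higher and 27.7% lower. The largest were *Cxcl10*, a chemokine gene (3.82), *Lgals9* (2.50) and *Ifitm3*, which encodes a protein that blocks virus entry (2.32). In proliferating cells 4 of 12 were higher, led by *Gbp9* (2.53) and *Gbp4* (1.86), and 1 was lower, against 16.2% and 13.8% of all genes. Of 16 genes of MHC class I presentation tested in differentiating cells 8 (50%) were higher, against 26.7% of all genes, led by *Tap1*, a peptide transporter gene (1.45), and *B2m*, the light chain gene (1.15). In proliferating cells 3 of 15 were higher and 5 lower, against the same 16.2% and 13.8%, with the heavy chain genes *H2-K1* (−1.77), *H2-Q7* (−1.69) and *H2-D1* (−1.60) the lowest. The interaction was called for *H2-K1* (1.41 ± 0.38, FDR 0.0162), *H2-D1* (1.45 ± 0.26, FDR 0.000884) and *Tap2* (1.07 ± 0.27, FDR 0.0122), and reads of the near-identical H2 paralogs may be split in counting. Of 10 targets of NF-kB, a factor that the same sensors activate, 8 (80%) were higher in differentiating cells, against 26.7% of all genes, led by *Ccl2* (3.61), *Icam1* (3.42) and *Birc3* (3.11), and 2 of 8 (25%) in proliferating cells, against 16.2%.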

How the data were processed

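RNA was sequenced from 24 libraries with a stranded mRNA kit, from 200 ng of RNA each. The authors aligned the reads to mm39 with Rsubread and counted them per gene with featureCounts against RefSeq, and deposited raw counts. Versions and the strand setting were not given in the sources used here. The 45 members and all gene lists were chosen with earlier results of these data known. Groups were taken from the labels.

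Protein-coding genes passing edgeR's filterByExpr were tested, without *Xist* and Y-linked genes. The filter took all genotypes of a fit together. Proliferating libraries were fitted by limma-voom with litter as a random block, differentiating ones by limma-trend (prior count 2) with array weights, and both together by limma-voom, with Benjamini-Hochberg adjustment (R 4.3.3, limma 3.58.1, edgeR 4.0.16, DESeq2 1.42.0). Fold changes are on the log2 scale with a prior count, so those of genes with few reads depend on it. Each error is the standard error of the fit, with 4 libraries a group. CPM used TMM factors over protein-coding genes. Fits were tested on simulated counts. Values in every library were given for the 8 largest changes among called members in each condition, the 3 largest interactions and *Stat2*, *Irf1*, *Irf7* and *Irf9*, and for members said to be picked later. Other genes come from lists, with up to 3 of the largest calls named per list and condition, and others named beyond these were chosen after their values were seen. Alternatives were another tool or scaling, no filter, no weights, litter, sex or replicate terms and each library left out. Promoters and identities used the GRCm39 reference (Python 3.11.15, Biopython 1.88).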

Additional observations from a re-analysis of the deposited data

Results flagged for a closer look

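Of 96 groups of 4 libraries examined for the named members, 12 had 1 library far from the other 3, and chance gives about 1 in 20. In differentiating *Kat6a*+/+ cells replicate 2 was high for *Tlr3* (12.6 CPM, others 8.26–8.68), *Iigp1* (0.819, others 0.0483–0.168), *Lgals3bp* (10.0, others 4.07–4.97) and *Ifi44* (0.710, others 0.330–0.386). Replicate 3 of that group was low for *Irf9* (15.8 CPM, others 18.6–18.7). In differentiating *Kat6a*+/- cells replicate 3 was low for *Oasl2* (0.222 CPM, others 1.14–1.21) and *Ifit3* (2.39, others 6.28–6.99), and replicate 4 was high for *Iigp1* (0.807, others 0.111–0.134). In differentiating *Kat6a*-/- cells replicate 1 was high for *Ifih1* (7.36 CPM, others 4.13–4.64). In proliferating cells *Stat2* was low in *Kat6a*+/+ replicate 3 (31.3 CPM, others 39.6–40.4), *Samd9l* in *Kat6a*+/- replicate 1 (0.322, others 1.22–1.40) and *Irf1* in *Kat6a*-/- replicate 1 (11.5, others 13.1–13.3).

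By the interaction term, the response to loss of both alleles differed between proliferating and differentiating cells for *Irf7* (2.72, FDR 0.0287), *Bst2* (2.59, FDR 0.00278), *Ifih1* (1.78, FDR 0.0293) and *Irf1* (1.09, FDR 0.00115), each as the log2 effect in differentiating minus that in proliferating cells. That is 10.8% of the members tested, against 13.9% of all genes. *Irf7* and *Ifih1* lost the call in some fits without 1 library, and edgeR and DESeq2 did not call *Irf7*.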

How the results depend on the processing

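Counts of members called that moved by over 1.5 times are given here. They stand without the share of all genes called, which also differed between fits, so a moved count is not particular to the members. For proliferating *Kat6a*-/- vs. *Kat6a*+/+ cells, 7 fell to 4 with litter as a fixed term, where the median of the members turned from 0.16 to −0.041. For proliferating *Kat6a*-/- vs. *Kat6a*+/- cells, 3 became 1 with edgeR, DESeq2 or no litter term. For differentiating *Kat6a*-/- vs. *Kat6a*+/+ cells, 28 became 15 with edgeR, 11 without weights, 9 with limma-voom, 8 with litter and 10 with sex as a fixed term, the last added after seeing the data. For differentiating *Kat6a*-/- vs. *Kat6a*+/- cells, 12 became 5, 4, 4, 0 and 1 in the same order, and 7 without a filter on low counts. The cause was not tested.

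Leaving out 1 library at a time gave 4–9, 1–4, 2–29 and 0–22 members for these comparisons, 0–0 and 0–7 for proliferating and differentiating *Kat6a*+/- vs. *Kat6a*+/+ cells, 24–28 for *Kat6a*+/+ cells between conditions and 2–7 for the interaction. These ranges count members alone, without the share of all genes.

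Same-numbered libraries did not deviate together in general, since 4 of 12 pairs in proliferating and 1 of 12 in differentiating cells had a correlation over 0.1, so the numbers were not taken as a pairing. With a replicate block, proliferating *Kat6a*-/- vs. *Kat6a*+/+ cells gave 7 members and differentiating ones 29, and 5 in proliferating *Kat6a*-/- vs. *Kat6a*+/- cells. These counts too stand without the share of all genes called.

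Over the named members, 634 values kept direction and side of the threshold under an alternative, 105 lost the call and 12 gained one. Scaling by library totals moved the median of all genes in differentiating *Kat6a*-/- vs. *Kat6a*+/+ cells to −0.17, with 25 members higher and 2 lower. The share of all genes called with that scaling is not set beside these counts. Members under about 1 CPM rest on few reads, and their fold changes depend on the prior count.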
